A study of Bos taurus with 48 samples.

Results

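The smooth muscle and actin contractile genes were described in bovine endometrium on day 17 of the reproductive cycle. They are a list of 37 genes, and a probe belonged to a gene when its gene name, or the symbol in the array's description of it, equalled that of the gene. On the array 36 of the 37 genes had a probe, 42 probes in all, of 21475 probes that carry 18042 symbols. Of these, 32 genes gave a signal above the filter used for testing, which 14690 probes passed. The cows were lactating Holstein-Friesian dairy cows with synchronised cycles. The pregnant group held 12 cows that had received a grade 1 embryo on day 7, and the cyclic group held 10 cows that had received none. Caruncular endometrium, the raised sites where the placenta later attaches, and intercaruncular endometrium, the glandular tissue between them, were taken from each cow. Among the pregnant cows the labels give 7 large and 5 small embryos, and 6 fertile and 6 sub-fertile cows. The small embryos were under 20 cm and 40 mg, and the large ones were over 20 cm and 75 mg.

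Smooth muscle shortens when myosin filaments pull on actin filaments, after a calcium-activated kinase has phosphorylated the myosin light chain. Calponin, caldesmon, transgelin and tropomyosin lie along the actin filament, and dense bodies, desmin and adhesion proteins carry the force to the membrane. The uterine wall has its smooth muscle in the myometrium, and within the endometrium the same genes are known from the walls of blood vessels, from pericytes and from stromal cells that take on a contractile state. Many of them are transcribed under serum response factor and its coactivator myocardin.

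RNA of the 44 samples carried Cy5 and competed on the array with a common pool of all samples in Cy3, so a level here is log2 of sample over pool. There were 48 arrays on 12 slides in 3 scan batches, since 4 caruncular samples had a repeat array, and a sample's arrays were averaged. Cows are named by the state and number in their labels, where Non-Pregnant stands for the cyclic cows. Spots were saturated on 1 array for ACTA2 and CAV1, 2 for FLNA and MYL6 and 3 for TPM4, so the exact levels of these genes on those arrays, and folds that use them, are uncertain. Between 70.5 and 85.4% of probes were well above background on an array. No dyes were swapped. Most slides held cows of 1 state, and the caruncular and intercaruncular arrays were scanned in separate batches, except for cows Pregnant_9790 and Non-Pregnant_9786, whose samples made up the third scan batch together with the repeats. A gene's value is that of its brightest probe that passed the filter.

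The sequence of the γ-enteric smooth muscle actin probe is shown because this gene is among those that fell most, and those of the myosin light chain kinase probes because the 2 probes differ in their calls. Of the myosin light chain kinase and dystrophin probes the first 30 of 60 bases are given, and no base is marked.
ACTG2: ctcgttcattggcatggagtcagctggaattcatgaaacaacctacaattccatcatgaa
MYLK, brighter probe: gttctcccagtttattatgccatcggatgg
MYLK, dimmer probe: tgaaacaaagccagcgagaagcagtttcta
DMD: ttttttaaaacttcagttttactgcatttt
The longest run that the MYLK probes share over their 60 bases is 6 bases, so they read separate stretches. Whether the ACTG2 probe also binds transcripts of other actins was not tested.

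The first question was whether the contractile genes differ between pregnant and cyclic cows. In caruncular tissue 8 of the 32 members fell in pregnant cows and none rose, where a gene was called at a change of at least 1.5-fold and an adjusted p under 0.05 (limma, Benjamini-Hochberg over all probes). Over all probes tested, 4.21% fell and 5.77% rose by that rule. In intercaruncular tissue 9 members fell and none rose, against 3.25% of all probes that fell and 3.99% that rose. Of the 10 members called in either tissue, 7 were called in both, namely ACTA2, ACTG2, CNN1, TAGLN, MYH11, FLNA and TPM2. The median log2 change of the members was -0.42 in caruncular and -0.39 in intercaruncular tissue, beside -0.04 and -0.01 over all probes. No member had every pregnant cow below every cyclic cow, a pattern that 0.306% of all probes showed in caruncular and 0.197% in intercaruncular tissue. In these bulk samples fewer cells of a type and less RNA per cell cannot be told apart.

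**Figure D1:**
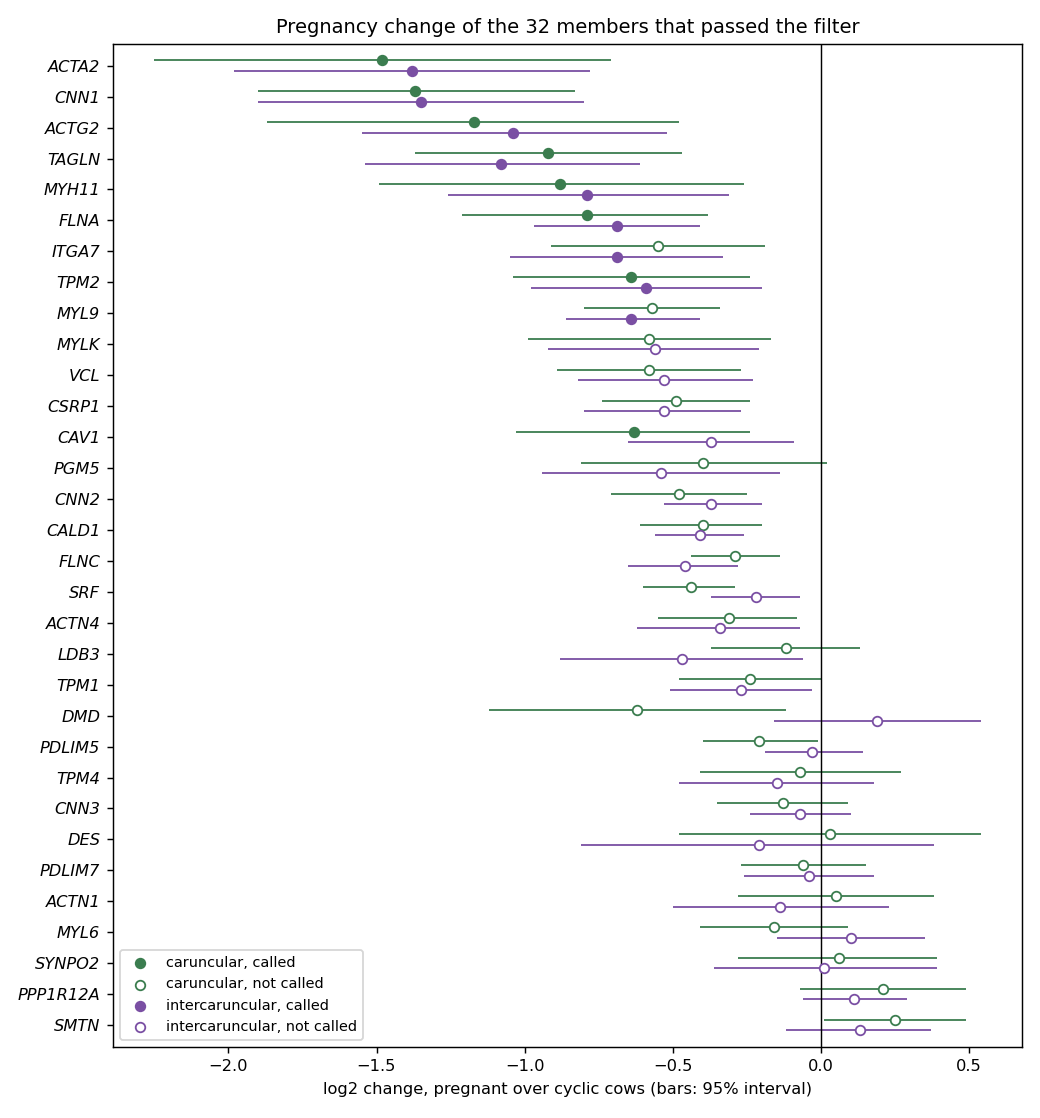
Log2 change (x axis) of pregnant over cyclic cows for each of the 32 members (y axis) in caruncular (green) and intercaruncular (purple) tissue, 12 pregnant and 10 cyclic cows, with 95% intervals as bars. Filled points were called; ACTA2, CNN1 and ACTG2 lie furthest to the left in caruncular tissue, at -1.48, -1.37 and -1.17, and DES, SMTN and SYNPO2 lie near or above 0.

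The contractile filaments held 4 of the called genes. ACTA2, the α actin of vascular smooth muscle, ranged in caruncular tissue from -0.87 to 2.00 in cyclic cows (median 1.17) and from -2.11 to 0.95 in pregnant cows (median -0.47). All 12 pregnant cows were below the median of the cyclic cows and 5 were below the lowest of them. The gene fell 2.79-fold (log2 change -1.48 ± 0.37 (SE), adjusted p = 0.00531). In intercaruncular tissue it ranged from -1.0 to 1.56 in cyclic cows (median 0.56) and from -1.87 to 0.31 in pregnant cows (median -0.78), and it fell 2.60-fold (adjusted p = 0.002).

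ACTG2, the γ actin of visceral smooth muscle, had a caruncular range of -0.76 to 1.63 in cyclic cows (median 0.73) and of -2.18 to 1.03 in pregnant cows (median -0.69). The groups overlapped, and 11 of 12 pregnant cows were below the cyclic median. ACTG2 fell 2.25-fold in caruncular tissue (log2 change -1.17 ± 0.34 (SE), adjusted p = 0.013) and 2.05-fold in intercaruncular tissue (-1.04 ± 0.25 (SE), adjusted p = 0.00574). In intercaruncular tissue its values ran from -0.62 to 1.44 in cyclic cows (median -0.01) and from -1.80 to 0.23 in pregnant cows (median -0.97).

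MYH11, the smooth muscle myosin heavy chain, had a caruncular range of -0.56 to 1.26 in cyclic cows (median 0.49) and of -2.18 to 0.50 in pregnant cows (median -0.44). It fell 1.84-fold (log2 change -0.88 ± 0.30 (SE), adjusted p = 0.0327), a call that was lost when any one of 8 cows was left out (Non-Pregnant_1950, Non-Pregnant_3811, Non-Pregnant_3972, Non-Pregnant_9778, Non-Pregnant_9960, Pregnant_1943, Pregnant_3805 or Pregnant_3957), with log2 changes of -0.85 to -0.78 and adjusted p of 0.0502 to 0.0634. In intercaruncular tissue the cyclic cows ran from -0.57 to 1.17 (median 0.37) and the pregnant cows from -1.95 to 0.37 (median -0.72), and the fall was 1.73-fold (adjusted p = 0.0185). Cow Pregnant_3803 was the lowest for MYH11 in both tissues.

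MYL9, the regulatory light chain that the kinase phosphorylates, fell 1.55-fold in intercaruncular tissue (log2 change -0.64 ± 0.11 (SE), adjusted p = 0.00029), where the cyclic cows ran from -0.30 to 0.69 and the pregnant cows from -0.60 to 0.17. In caruncular tissue its log2 change was -0.57 at an adjusted p of 0.00067, a little under the 1.5-fold limit. MYL6, the essential light chain, which non-muscle cells also use, had log2 changes of -0.16 and 0.10 (adjusted p = 0.337 and 0.599). The first 4 filament genes were thus lower in both tissues, and the light chain shared with other cells did not pass the test in either.

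**Figure D2:**
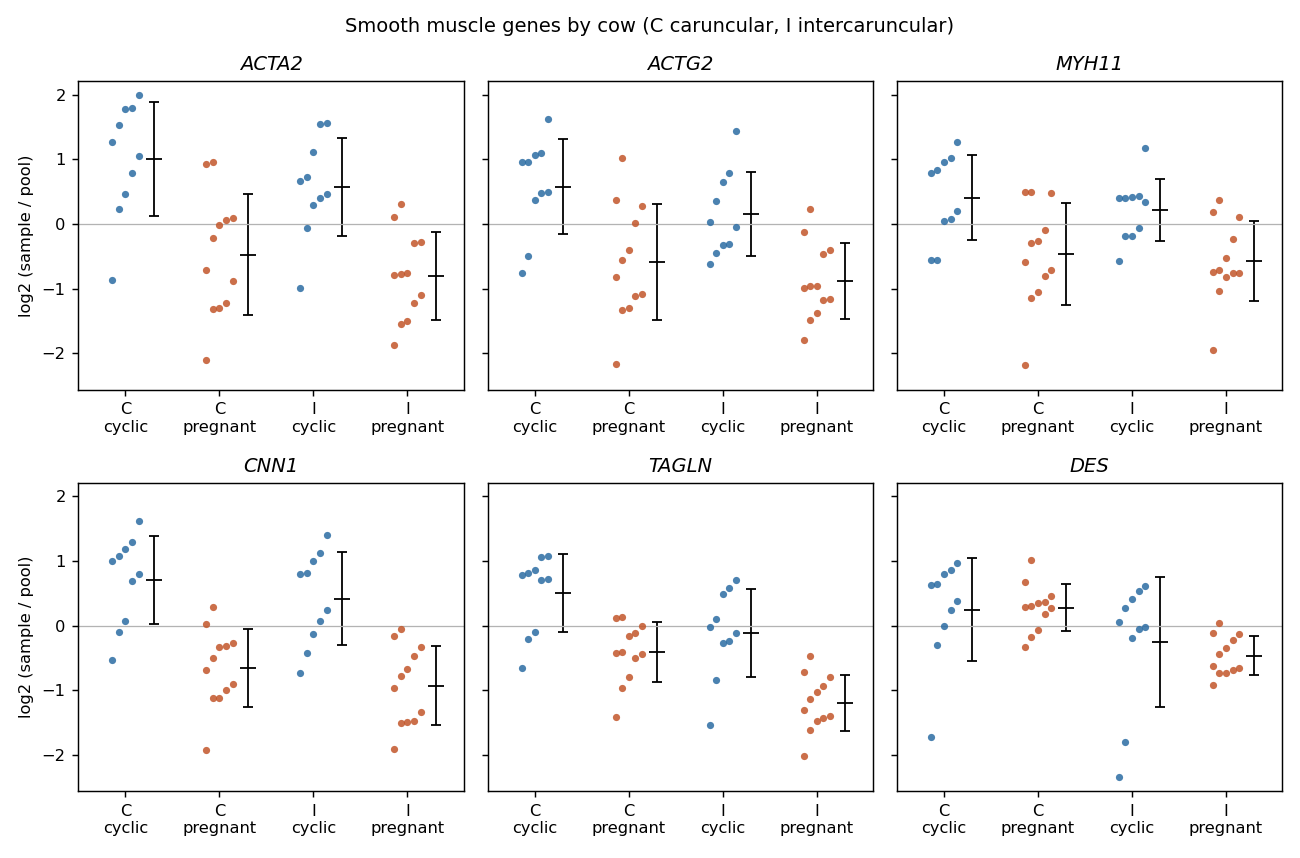
Level of 6 members in each sample (y axis, log2 of sample over pool) by tissue and state (x axis), one point a cow, with the mean and SD beside each group of 10 cyclic or 12 pregnant cows. ACTA2, ACTG2, MYH11, CNN1 and TAGLN are lower in pregnant than in cyclic cows in both tissues with overlapping groups, and DES has 1 caruncular and 2 intercaruncular samples of cyclic cows below -1.5.

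Among the thin filament proteins 3 of the 9 that passed the filter fell in each tissue. CNN1, calponin of smooth muscle, which binds actin and slows the myosin, had a caruncular range of -0.52 to 1.62 in cyclic cows (median 0.90) and of -1.92 to 0.29 in pregnant cows (median -0.60). All 12 pregnant cows were below the cyclic median in both tissues. CNN1 fell 2.58-fold in caruncular tissue (log2 change -1.37 ± 0.26 (SE), adjusted p = 0.000569) and 2.55-fold in intercaruncular tissue (-1.35 ± 0.27 (SE), adjusted p = 0.00126). In intercaruncular tissue its range was -0.74 to 1.41 in cyclic cows and -1.91 to -0.05 in pregnant cows.

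TAGLN, transgelin, an actin-binding protein used as an early marker of smooth muscle, fell 1.89-fold in caruncular tissue (adjusted p = 0.00342) and 2.11-fold in intercaruncular tissue (adjusted p = 0.00204). Its caruncular values ran from -0.66 to 1.08 in cyclic cows and from -1.42 to 0.14 in pregnant cows. Its intercaruncular values ran from -1.54 to 0.70 and from -2.01 to -0.47. Cow Non-Pregnant_9786 was the lowest of its group in both tissues, and the groups overlapped.

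TPM2, β tropomyosin, fell 1.56-fold in caruncular tissue (adjusted p = 0.018) and 1.5-fold in intercaruncular tissue (adjusted p = 0.0296). The caruncular call was lost without cow Pregnant_3803 (-0.54). The intercaruncular call lay at the limit and was lost, with log2 changes of -0.58 to -0.49, without any one of 11 cows (Non-Pregnant_1940, Non-Pregnant_1950, Non-Pregnant_2952, Non-Pregnant_3811, Non-Pregnant_3972, Pregnant_1943, Pregnant_3803, Pregnant_3805, Pregnant_3807, Pregnant_3957 or Pregnant_9921). CALD1, caldesmon, and CNN2, a calponin of many cell types, were lower by less than 1.5-fold, at log2 changes of -0.40 and -0.48 in caruncular tissue (adjusted p = 0.00497 and 0.00271) and of -0.41 and -0.37 in the intercaruncular samples (adjusted p = 0.000581 and 0.0028). TPM1, TPM4 and CNN3 did not pass the test in either tissue. SMTN, smoothelin, a marker of contractile smooth muscle, had log2 changes of 0.25 and 0.13 (adjusted p = 0.119 and 0.488). LMOD1, leiomodin, was above background in 11 of 44 samples and was not tested.

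Of the genes that set myosin phosphorylation, MYLK encodes the light chain kinase. Its brighter probe had log2 changes of -0.58 ± 0.20 (SE) in caruncular and -0.56 ± 0.17 in intercaruncular tissue (adjusted p = 0.0331 and 0.0239), under the 1.5-fold limit. Its dimmer probe fell in both tissues, with log2 changes of -0.73 and -0.80 (adjusted p = 0.00822 and 0.00271). The probes had the same direction and lay on different sides of the fold limit. PPP1R12A, the myosin phosphatase targeting subunit, had log2 changes of 0.21 and 0.11 (adjusted p = 0.258 and 0.359). PPP1R12B, the related subunit of muscle, was above background in 2 of 44 samples.

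In the dense bodies and the intermediate filament 1 of 10 members, FLNA, fell in each tissue. FLNA, filamin A, which crosslinks actin in most cell types, fell 1.73-fold in caruncular and 1.61-fold in intercaruncular tissue (adjusted p = 0.0059 and 0.00131). Its caruncular values ran from -0.61 to 1.25 in cyclic cows and from -1.07 to 0.90 in pregnant cows. DES, desmin, the intermediate filament of muscle, had a caruncular range of -1.72 to 0.96 in cyclic cows (median 0.51) and of -0.33 to 1.02 in pregnant cows (median 0.29). Its log2 change was 0.03 with a 95% interval of -0.48 to 0.54 (adjusted p = 0.939). In intercaruncular tissue DES ran from -2.35 to 0.61 in cyclic cows (median 0.02) and from -0.92 to 0.04 in pregnant cows (median -0.53), with a change of -0.21 and an interval of -0.81 to 0.38 (adjusted p = 0.639). These values depend on cow Non-Pregnant_9786, the lowest for DES in both tissues. In intercaruncular tissue cow Non-Pregnant_9960 was also low, at -1.81, where the next cyclic cow was at -0.19. Without Non-Pregnant_9786 alone the log2 changes were -0.19 and -0.44 (adjusted p = 0.406 and 0.142), so the caruncular sign turned.

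FLNC, filamin C, and CSRP1, a LIM protein of smooth muscle, were lower by less than 1.5-fold in both tissues. FLNC had log2 changes of -0.29 and -0.46 (adjusted p = 0.00533 and 0.00113), and CSRP1 had -0.49 and -0.53 (adjusted p = 0.00477 and 0.00539). SYNPO2, LDB3, PDLIM5, PDLIM7 and ACTN1, which sit at dense bodies or Z-discs, did not pass the test in either tissue. ACTN4, an α-actinin of many cell types, had a caruncular change of -0.31 (adjusted p = 0.0426), and its second probe had 0.06 (adjusted p = 0.502). PDLIM3 was above background in 2 of 44 samples.

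At the membrane, ITGA7, the α7 integrin that binds laminin in muscle, fell 1.61-fold in intercaruncular tissue (adjusted p = 0.00709). In caruncular tissue its mean was 0.23 in cyclic and -0.32 in pregnant cows, a difference under the 1.5-fold limit. CAV1, caveolin, the coat protein of membrane pits in muscle, endothelium and other cells, fell 1.55-fold in caruncular tissue (adjusted p = 0.0168). It was just under the fold limit there without Non-Pregnant_3811, Pregnant_3957 or Pregnant_9921 (-0.58 to -0.57). In intercaruncular tissue its mean was 0.20 in cyclic and -0.17 in pregnant cows, and it was not called. VCL, vinculin, was lower by less than 1.5-fold in both tissues, at -0.58 and -0.53 (adjusted p = 0.00712 and 0.0114). DMD, dystrophin, had a caruncular change of -0.62 (adjusted p = 0.0595) and an intercaruncular change of 0.19 (adjusted p = 0.462), and PGM5, a protein of muscle adhesion sites, had -0.40 and -0.54 (adjusted p = 0.144 and 0.0521). TNS1, tensin, had no probe by the rule. The array lists 2 probes under the older symbol TNS with a transcript that the reference names TNS1; 1 of them fell in the intercaruncular samples (-0.68, adjusted p = 0.0482) and the other had -0.10 (adjusted p = 0.602).

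The transcription factors gave small values. SRF, serum response factor, ran from 0.08 to 0.68 in caruncular samples of cyclic cows (median 0.35) and from -0.29 to 0.20 in those of pregnant cows (median -0.09). Its log2 change was -0.44 ± 0.08 (SE) (adjusted p = 0.000187) in caruncular tissue and -0.22 ± 0.07 (adjusted p = 0.0364) in intercaruncular tissue, both under the 1.5-fold limit. In caruncular tissue 10 of 12 pregnant cows were below the lowest cyclic cow. MYOCD, myocardin, was above background in 0 of 44 samples, and no level or change is given for it.

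The members were also counted by how closely they are tied to muscle. Of the 13 muscle-restricted members that passed the filter, 5 fell in caruncular and 7 in intercaruncular tissue. Of the 6 muscle-enriched members 1 fell in each tissue, and of the 13 broadly expressed members 2 fell in caruncular tissue and 1 in intercaruncular tissue. In the same order, the medians of their log2 changes were -0.55, -0.53 and -0.21 (caruncular) and -0.64, -0.47 and -0.15 (intercaruncular).

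Lists of other genes were set beside the members. Of 12 further smooth muscle genes that passed the filter, none fell by the rule and 1, CRYAB, rose in caruncular tissue (0.72, adjusted p = 0.0149). In that tissue 10 of the 12 had changes below 0 (83.3%, against 56.9% of all probes), with a median of -0.29. Of these, 3 had an adjusted p under 0.05 and were under the fold limit. In intercaruncular tissue 3 of the 12 fell, namely SMOC2, NEXN and FHL1. There 8 of the 12 were below 0 (66.7%, against 52.5% of all probes), with a median of -0.23. Of 8 pericyte genes, RGS5 and MCAM fell in both tissues (RGS5 -0.76 and -0.66, MCAM -0.67 and -0.81), and CSPG4 also fell in intercaruncular tissue. In each tissue 1 pericyte gene was higher in pregnant cows at an adjusted p under 0.05 and under the fold limit. Of the 8, 6 were below 0 in caruncular and 5 in intercaruncular tissue, with medians of -0.11 and -0.13. None of the 10 non-muscle actin and myosin genes was called in either tissue, and their medians were -0.01 and -0.03.

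Markers of other cell types moved with pregnancy as well. Of 9 endothelial genes 3 fell in each tissue, PECAM1, EMCN and TEK, and the mean of their log2 levels ran from -0.27 to 0.52 in cyclic and from -0.57 to 0.41 in pregnant cows in caruncular tissue. In intercaruncular tissue it ran from 0.00 to 0.69 and from -0.55 to 0.13. Of 12 stromal genes 1 fell and 1 rose in caruncular tissue, and 3 collagen genes fell in intercaruncular tissue, COL3A1 by 1.32, COL1A1 by 1.01 and COL1A2 by 0.84 on the log2 scale. Of 12 epithelial genes 2 fell and 2 rose in caruncular tissue, and 1 fell and 3 rose in intercaruncular tissue. None of 9 leukocyte genes was called. Of the genes listed for trophoblast PAG1 alone passed the filter, with adjusted p over 0.05 in both tissues. Its probe was above background in all 10 cyclic and all 12 pregnant cows in each tissue, so its signal was present without an embryo. TKDP1 was above background in 2 of 44 samples. The mean level of the 13 muscle-restricted members ran from -0.21 to 0.81 in cyclic and from -0.95 to 0.43 in pregnant cows in caruncular tissue, and from -0.54 to 0.69 and from -1.07 to 0.13 in intercaruncular tissue. The part of these cell types, or of myometrium taken with the samples, in the fall of the contractile genes was not tested.

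Slide and state were nearly confounded. Slides 2 (intercaruncular) and 7 (caruncular) held 3 pregnant cows and 1 cyclic cow, Non-Pregnant_3972, which was the highest cyclic cow in intercaruncular tissue for ACTA2, ACTG2 and MYH11. Both slides also held Pregnant_3803, the lowest cow for ACTA2, ACTG2 and MYH11 in both tissues. Within these slides ACTA2 differed by -2.80 and -2.60 on the log2 scale, ACTG2 by -2.86 and -2.28, and DES by -0.98 and -1.01. A fixed slide block, which takes the difference from these 2 slides alone, called 1 member in caruncular tissue (TAGLN, -1.96, adjusted p = 0.0418) and 2 in intercaruncular tissue (ACTA2 and ACTG2, adjusted p = 0.0469 and 0.017). A random slide block called 7 in each tissue, and MYH11 was not among them. Over all probes the random block called 653 in intercaruncular tissue, against 1064 without it. Without the 2 cows of the third scan batch, 12 members fell in each tissue. Leaving out single cows also brought DMD, ITGA7, MYL9, MYLK and VCL past both limits in caruncular tissue, and CSRP1, LDB3, MYLK and PGM5 in the other.

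The second question was whether the genes differ between the tissues, and each cow's intercaruncular value was taken from its caruncular value. More members were higher in caruncular tissue than lower. In cyclic cows 2 members were called, both higher in caruncular tissue, where 7.53% of all probes were higher and 5.75% lower. In pregnant cows 4 were higher and 1 was lower, against 9.43% and 8.26% of all probes. The median tissue difference of the members was 0.24 in cyclic and 0.22 in pregnant cows, beside -0.02 over all probes in each. At an adjusted p under 0.05 with no fold limit, 15 of 32 members were higher in caruncular tissue in both states, as were 21.4% of all probes.

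MYLK was higher in caruncular tissue in all 22 cows. Its difference ran from 0.18 to 1.85 in cyclic cows and from 0.23 to 1.47 in pregnant cows, with means of 0.78 ± 0.14 (SE) and 0.76 ± 0.12 (adjusted p = 6.28e-05 and 1.59e-05). The dimmer MYLK probe, of a separate stretch, had 0.24 and 0.30 (adjusted p = 0.166 and 0.0501). The probes therefore agree in direction and differ in size. TAGLN was higher in caruncular tissue in 9 of 10 cyclic and 11 of 12 pregnant cows, by 0.62 (adjusted p = 0.000732) and 0.78 (adjusted p = 1.67e-05). Its cyclic difference was under the fold limit without cow Non-Pregnant_9960 (0.48), Non-Pregnant_3972 (0.58) or Non-Pregnant_9778 (0.58).

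DES and PGM5 were called in pregnant cows, where both were higher in caruncular tissue in 12 of 12 cows. The means were 0.74 for DES (adjusted p = 0.000327) and 0.66 for PGM5 (adjusted p = 0.00044). In cyclic cows DES had 0.50 and PGM5 0.52 (adjusted p = 0.0183 and 0.00837), under the fold limit. SYNPO2, a synaptopodin of dense bodies, had 0.17 and 0.21 by its brighter probe (adjusted p = 0.0451 and 0.00606), while its dimmer probe was higher in caruncular tissue, by 1.09 and 1.15 (adjusted p = 1.16e-05 and 7.62e-07).

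DMD moved the other way. It was lower in caruncular tissue in 12 of 12 pregnant cows, with differences of -1.95 to -0.44 and a mean of -1.31 ± 0.16 (SE) (adjusted p = 5.67e-07). In cyclic cows the difference ran from -1.26 to 0.43, with a mean of -0.51 (adjusted p = 0.0194) and 3 of 10 cows above 0. LDB3 and ITGA7 also had cyclic medians below 0, at -0.59 and -0.35, with 1 of 9 and 1 of 10 cows above 0. Their medians in pregnant cows were -0.12 and -0.04, and neither gene was called. ACTA2, ACTG2 and MYH11 were not called between the tissues, with means of 0.43, 0.43 and 0.19 in cyclic cows (adjusted p = 0.0499, 0.0687 and 0.3) and 0.33, 0.29 and 0.10 in pregnant cows (adjusted p = 0.0889, 0.16 and 0.545).

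**Figure D3:**
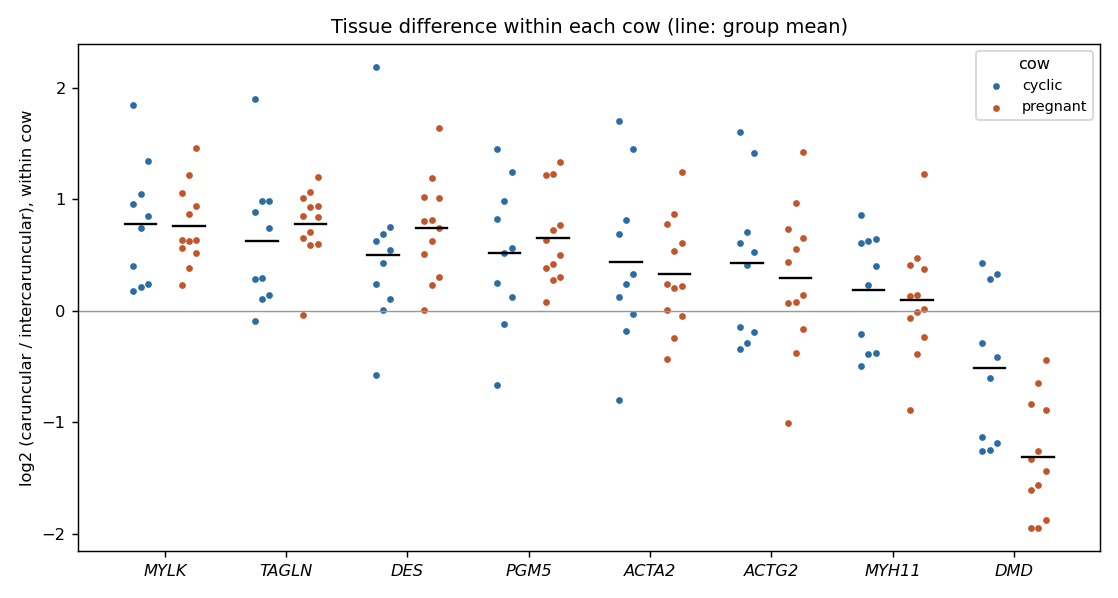
Caruncular less intercaruncular level within each cow (y axis, log2) for 8 members (x axis) in 10 cyclic (blue) and 12 pregnant (orange) cows, with the group mean as a line. MYLK lies above 0 in every cow and DMD lies below 0 in every pregnant cow.

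The tissues were scanned in separate batches, so a scan effect and a tissue effect cannot be told apart except in the 2 cows with both tissues on 1 slide. In cow Pregnant_9790 the within-slide differences were 1.22 for MYLK, 0.84 for TAGLN, 1.19 for DES, 0.08 for PGM5 and -0.83 for DMD. In cow Non-Pregnant_9786 they were 1.85, 0.88, 0.62, -0.66 and -1.24. Stromal and epithelial markers also differed between the tissues. In cyclic cows 5 of 12 stromal genes were higher in caruncular tissue (median 0.51) and 3 of 12 epithelial genes were lower (median -0.29). In pregnant cows 9 of 12 stromal genes were higher (median 0.89), and 7 of 12 epithelial genes were lower and 1 was higher (median -0.66). Their part in the differences of the contractile genes was not tested.

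The effect of pregnancy was compared between the tissues as the difference of the within-cow differences. No member passed an adjusted p of 0.05 in limma, where 1.02% of all probes did, and 4 of 32 members had an unadjusted p under 0.05 (12.5%, against 17.3% of all probes). Of these 4, DMD had the largest value, -0.81 ± 0.24 (SE) (adjusted p = 0.0847), then LDB3 with 0.38 (adjusted p = 0.168), CAV1 with -0.26 (adjusted p = 0.282) and SRF with -0.23 (adjusted p = 0.132). Without the cows of the third scan batch DMD was called (-0.93, adjusted p = 0.0371). ITGA7, MYL9 and CAV1 were each called in 1 tissue alone, and of these none passed the test of the difference.

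The third question was whether the genes follow embryo size among pregnant cows. In caruncular tissue no member and 0.0% of all probes were called by limma at an adjusted p under 0.05, and 2 of 32 members, DMD and PDLIM7, had an unadjusted p under 0.05 (6.25%, against 6.9% of all probes). In intercaruncular tissue 3.69% of all probes were called and no member was, by its brightest probe, although 9 of 32 had an unadjusted p under 0.05 (28.1%, against 21.6% of all probes). The levels of 27 of 32 members were lower with a large embryo, where 51.7% of all probes were.

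ACTA2 in intercaruncular tissue was -0.79 to 0.31 (median -0.28) in the 5 cows with a small embryo and -1.87 to -0.30 (median -1.23) in the 7 with a large one. The mean difference was -0.91 ± 0.28 (SE) (adjusted p = 0.0866). CNN1 was -0.96 to -0.05 with a small and -1.91 to -0.47 with a large embryo, a difference of -0.85 (adjusted p = 0.0718). ITGA7, DMD, TAGLN, MYLK, VCL and CALD1 also had differences below 0 with an unadjusted p under 0.05, and PDLIM7 had 0.36. PDLIM5, a PDZ and LIM protein of the Z-disc, was higher with a large embryo by its dimmer probe (0.76, adjusted p = 0.0448), and its brighter probe was not called.

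**Figure D4:**
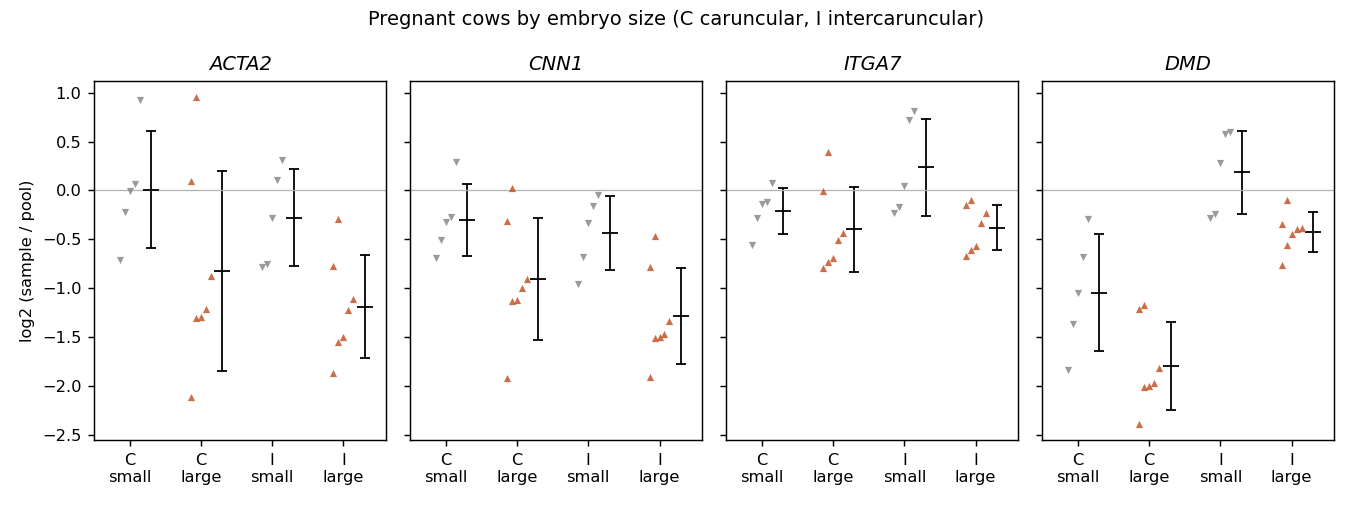
Level of 4 members (y axis, log2 of sample over pool) in pregnant cows by tissue and embryo size (x axis), 5 cows with a small (grey) and 7 with a large embryo (orange), with the mean and SD beside each group. In intercaruncular tissue the means of ACTA2 are -0.28 and -1.19, and the groups overlap for all 4 genes.

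Slides held both embryo sizes, so the difference could be taken within them. In intercaruncular tissue the large less small values of ACTA2 were -0.98, -0.73 and -1.38 on slides 1, 2 and 12, and those of CNN1 were -1.11, -0.66 and -1.10. A fixed slide block called 5 members, namely ACTA2 (-1.04, adjusted p = 0.0495), CNN1 (-0.97, adjusted p = 0.0436), TAGLN (-0.70, adjusted p = 0.0267), VCL (-0.57, adjusted p = 0.0198) and FLNC (-0.31, adjusted p = 0.0496). A random slide block called CNN1, DMD and VCL. Over all 14690 probes the fixed block called 1086 and the random block 876, against 542 without a block. Genes of the marker lists also moved with embryo size in the same tissue. PECAM1 (-0.93), MCAM (-0.51), COL3A1 (-0.92), FHL1 (-0.68) and NEXN (-0.67) were lower with a large embryo and CRYAB (1.20) was higher, at adjusted p of 0.0233 to 0.0492. Their part in the values of the members was not tested.

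Fertile and sub-fertile cows were compared last. No member was called in either tissue by limma, where 0.0% of all probes were called in caruncular and 0.0477% in intercaruncular tissue. In caruncular tissue 4 of 32 members had an unadjusted p under 0.05 (12.5%, against 13.8% of all probes) and in intercaruncular tissue 6 had (18.8%, against 13.6%). In intercaruncular tissue 4 of 32 members were below 0, that is lower in fertile cows, where 48.3% of all probes were, and the median difference was 0.19. Slide and fertility were largely confounded. Of the pregnant cows' intercaruncular arrays, slide 12 held fertile cows alone, slides 2 and 10 sub-fertile cows alone, and slide 1 both. By first arrays, the same sets of cows shared slides in caruncular tissue. The part of slide in these values was not tested. LDB3, a Z-disc protein, was lower in fertile cows by 0.50 on the log2 scale in intercaruncular tissue (SE 0.13, adjusted p = 0.156), and MYH11 was higher by 0.76 (SE 0.27, adjusted p = 0.267). The 95% intervals of ACTA2, CNN1 and TAGLN were not narrow enough to exclude a 1.5-fold difference with 6 cows a group.

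The cows were then described one by one. The mean level of the muscle-restricted members was lowest in cow Pregnant_3803, at -0.95 in caruncular and -1.07 in intercaruncular tissue. Among pregnant cows it was highest in cow Pregnant_9790 in caruncular tissue (0.43) and in cow Pregnant_3956 in intercaruncular tissue (0.13). Cows Non-Pregnant_2970, Non-Pregnant_9786, Non-Pregnant_9813 and Non-Pregnant_1940 were at -0.21, -0.06, 0.17 and 0.33 in caruncular tissue, within the range of the pregnant cows.

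**Figure D5:**
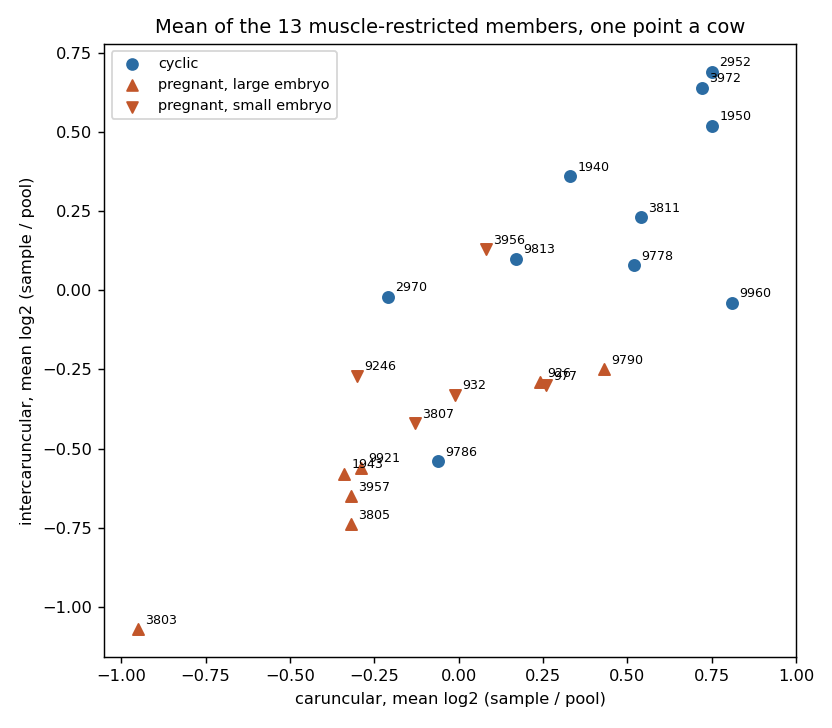
Mean level of the 13 muscle-restricted members (log2 of sample over pool) in caruncular (x axis) against intercaruncular tissue (y axis), one point a cow: cyclic (blue), pregnant with a large (upward triangle) or small embryo (downward triangle). Cow Pregnant_3803 is lowest in both tissues, at -0.95 and -1.07, and cow Non-Pregnant_9786 lies among the pregnant cows.

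The level of a gene in a cow's 2 tissues was correlated for the 13 muscle-restricted members, in pregnant and cyclic cows apart, which makes 26 relations. After adjustment over these, 6 members passed 0.05 in pregnant cows and 2 in cyclic cows by Pearson's r, and 5 and 1 by Spearman's rank coefficient (permutation tests, two-sided). ACTA2 had r = 0.87 in the 12 pregnant cows (permutation p = 0.00041, adjusted p = 0.00266), Spearman's coefficient = 0.85 (p = 0.00094, adjusted p = 0.0122), and r = 0.84 without the 2 cows farthest from the caruncular median. The pregnant cows hold both embryo sizes. Mean ACTA2 with a small and a large embryo was 0.01 and -0.82 in caruncular and -0.28 and -1.19 in intercaruncular tissue. The part of embryo size in these relations was not tested. SYNPO2 had r = 0.88 in both states (permutation p = 0.00029 and 0.00038, adjusted p = 0.00266 in each), Spearman's coefficient = 0.76 and 0.92 (adjusted p = 0.0436 and 0.0122), and r = 0.76 and 0.82 without the 2 farthest cows. CNN1 had r = 0.87 in pregnant cows (adjusted p = 0.00266) and 0.83 in cyclic cows (adjusted p = 0.0132), with Spearman's coefficient = 0.82 and 0.72 (adjusted p = 0.017 and 0.0735) and r = 0.80 and 0.67 without the 2 farthest.

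For MYH11 in pregnant cows r was 0.75 (adjusted p = 0.0194) and Spearman's coefficient 0.73 (adjusted p = 0.0444). Without the 2 farthest cows r was 0.38, so Pearson's relation rests on those cows, and without the cow of the third scan batch it was 0.86. DES had r = 0.11 in pregnant cows (permutation p = 0.742, adjusted p = 0.742) and 0.71 in cyclic cows (p = 0.036, adjusted p = 0.0936), with Spearman's coefficient = 0.06 and 0.66 and r = 0.44 and 0.45 without the 2 farthest. By the first array of each sample, cows that shared a slide in caruncular tissue also shared a slide in intercaruncular tissue. The part of slide in these relations was not tested. The tissues of a cow were on different slides and in different scan batches, other than for cows Pregnant_9790 and Non-Pregnant_9786. Without these cows r was 0.88 for ACTA2 and 0.91 for CNN1 in pregnant cows.

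Members were also set against the mean of the muscle-restricted members over the 44 samples, with the mean of each tissue and state taken out. CNN1 (r = 0.92), ACTA2 (0.91), TPM2 (0.90) and TAGLN (0.85) followed the mean of the others most closely. DES had 0.50, SRF 0.53, PGM5 0.06 and PDLIM7 -0.18. Of 12652 other probes with a symbol, the 15 that followed it most had r of 0.70 to 0.79, where the median over probes was -0.01. They include LIMS2, a LIM protein of adhesion sites (0.79), WFDC1 (0.79), CCBE1 (0.78), MCAM, an adhesion protein of pericytes and endothelium (0.75), SLIT3 (0.75), FBLN5, an elastic fibre protein (0.72), HRH1, the histamine H1 receptor of smooth muscle (0.72), and PRKCDBP, a caveolar protein (0.70). Of these 15, WFDC1 fell most in pregnant cows, with log2 changes of -1.14 (caruncular) and -1.28 (intercaruncular) (adjusted p = 0.000305 and 9.93e-06). MCAM also fell in both tissues (-0.67 and -0.81), and CCBE1 fell in caruncular tissue alone (-0.65, adjusted p = 0.0149). The rest of the 15 were not called with pregnancy in either tissue. Among them were CD151 (-0.1 and -0.09), PLEKHO1 (-0.12 and -0.05), HRH1 (-0.13 and -0.08) and CRX (0.03 and 0.06). LIMS2 was under the fold limit at -0.44 and -0.49 (adjusted p = 0.0335 and 0.0183). All of the 15 but CRX had negative log2 changes in both tissues. Over all probes 4.21% fell by the rule in caruncular and 3.25% in intercaruncular tissue. Whether following the muscle-restricted members goes with a fall in pregnant cows was not tested. These values are descriptions across samples that share the pool and the arrays.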

How the data were processed

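Scanner files hold spot intensity values that the authors extracted with Agilent software, which subtracted background and normalized the dyes by LOWESS, and log10 ratios of Cy5 to Cy3, per the file headers. The authors' deposited matrix holds log2 ratios and was used as an alternative only. Its columns differed from the scanner values by an SD of at most 0.0944. For each array, log10 ratios were taken to log2, outlier-flagged spots left out and the spots of a probe averaged. Arrays were to be centred on the median over all probes, which changed nothing: the software writes a ratio of exactly 0 where neither channel is well above background (5.3 to 16.1% of probes), and this median was 0 on every array. The filter kept probes whose Cy5 signal reached 80 units and stood well above background in 22 or more of the 44 samples. Tests used limma 3.58.1 (lmFit, eBayes) in R 4.3.3, checked on simulated data. Tissue effects were fitted on within-cow differences, since both tissues came from the same animal. A change was called at 1.5-fold and an adjusted p under 0.05 for pregnancy and tissue, and at an adjusted p under 0.05 otherwise. Correlations used 100000 permutations. Of 42 member probes, 26 were matched to the reference table by accession or gene number, 25 with the same symbol; the second PDLIM7 probe matched RBM34. The members and the lists were chosen with earlier results of these data known. All 37 genes are accounted for, and values by cow group are given for ACTA2, ACTG2, MYH11, DES, SRF (MYOCD had none) and up to 8 called members with the largest change in each comparison, and the 15 probes most like the muscle-restricted members are summarised. Alternatives covered background correction, centring, filter, matrix, probe, repeat arrays, slide and scan blocks, the methods' t-test, covariates and left-out cows. Leaving out each cow, or the third scan batch, and centring on filtered probes were chosen after seeing the data. One further gene list is not reported here.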

Additional observations from a re-analysis of the deposited data

Results flagged for a closer look

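In groups of 5 to 10 samples, 6 of 90 sets of values held a sample far from the others, where chance gives about 1 in 20. Cow Non-Pregnant_9786 was far below the other caruncular samples of cyclic cows for DES (-1.72, the next at -0.29) and CAV1 (-0.38, the next at 0.32). Cow Non-Pregnant_2970 was far below the other cyclic cows in the same tissue for FLNA (-0.61, the next at 0.48) and MYL9 (-0.28, the next at 0.26). Cow Pregnant_977 stood above the other caruncular samples with a small embryo for FLNA (0.34, the next at -0.05), and cow Pregnant_9790 above the other intercaruncular samples with a large embryo for SRF (0.32, the next at 0.03). Cows Non-Pregnant_9786 and Pregnant_9790 are those of the third scan batch, and its part in these values was not tested.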

How the results depend on the processing

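No called change of a member reversed: of 843 values of single genes under the alternatives, 796 kept their call and 47 lost it. The 843 include values that could not change, and these say nothing about stability. Among them are all values without centring, and intercaruncular pregnancy values under the choice of repeat array, since only caruncular samples had repeats. With a fixed slide block 1 member fell with pregnancy in caruncular and 2 in intercaruncular tissue, and 5 were called for embryo size in intercaruncular tissue, where a random slide block gave 3, the probe with the smallest p gave 1 and fertility as a covariate gave 1. The difference of the pregnancy effect between tissues gave 1 member without the third scan batch. Leaving out each cow gave 6 to 12 members for pregnancy in caruncular and 8 to 12 in intercaruncular tissue, 1 to 4 for tissue in cyclic cows (1 without cow Non-Pregnant_3972 or Non-Pregnant_9778, 4 without Non-Pregnant_1940 or Non-Pregnant_9960), 5 to 5 in pregnant cows, 0 to 1 for the difference between tissues (1 without cow Pregnant_3807, Non-Pregnant_9786 or Non-Pregnant_9960) and, over cows with a small embryo, 0 to 1 in intercaruncular tissue (1 without cow Pregnant_3956). No centring equals the reported setting by construction, since the median of every array is 0, and shows nothing about stability; centring on the filtered probes, whose medians ran from -0.0424 to 0.0474, gave 8 and 8 members for pregnancy. Without the replicate block, so without pairing a cow's tissues, 2 members were called in cyclic and 5 in pregnant cows, and none for the difference between tissues. The other settings kept the count of members within 1.5 times. Over all probes, a fixed slide block called 58 and 132 for pregnancy against 1467 and 1064, and a random one 653 in intercaruncular tissue. For embryo size in intercaruncular tissue the blocks called 1086 and 876 and no filter 319 against 542, which came to 34 without cow Pregnant_932 and 50 without cow Pregnant_9246. For the difference between tissues 3 were called without the block, 74 with the first of the repeat arrays, 630 without the third scan batch and 47 to 584 when 1 cow was left out, against 150. For fertility in intercaruncular tissue 0 to 4 were called with a slide block or no filter against 7. The arrays bound what can be said of LMOD1, MYOCD, PDLIM3 and PPP1R12B, which were near background.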
